A study of Homo sapiens with 9 samples.

Results

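GADD45A, GADD45B and GADD45G make up the GADD45 family of stress sensor genes, and every probe set that carries one of these 3 symbols was followed here. They were 3 of 19775 genes and had 6 of the 54613 probe sets tested, which were 1 for GADD45A, 4 for GADD45B and 1 for GADD45G. The cells were Jurkat, an established human T lymphocyte line grown in RPMI medium with serum. The 3 groups, of 3 arrays each, were cells exposed to nanosecond electrical pulses (nsEP), heat-shocked cells and sham-exposed cells, and all were suspended at 1 density in a cuvette beforehand. The nsEP train was 100 pulses of 10 ns at 150 kV/cm, and total RNA was collected 4 h afterwards from every group. The titles call the 3 arrays of a group biological replicates, without saying whether they came from separate cultures, so p-values measure only the spread between these samples.

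The GADD45 proteins are small acidic proteins of the nucleus with no known enzyme activity, and they act by binding others. They bind and open the kinase MTK1 (MAP3K4), which sends signals to p38 and JNK. They also bind PCNA, p21 and the CDK1 and cyclin B1 kinase, and they bring repair enzymes to methylated DNA. GADD45A is the classic gene of DNA damage and growth arrest and a target of p53. GADD45B is a primary response gene of cytokines and NF-kB signalling that limits JNK signalling in many cells. GADD45G was found as a cytokine response gene, and in T cells GADD45B and GADD45G help interleukin-12 and interleukin-18 to induce interferon gamma.

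In GRCh38.p14 GADD45A lies on chromosome 1 at 67685201 to 67688334 (gene identifier 1647), GADD45B on chromosome 19 at 2476127 to 2478257 (4616) and GADD45G on chromosome 9 at 89605012 to 89606555 (10912). The 250 bases before the RefSeq start site of GADD45B and GADD45G are shown. A RefSeq window was on hand for 2 of the 3 genes, and GADD45A is named only.
GADD45B, chr19:2475877-2476126, plus strand, 63.2% G and C: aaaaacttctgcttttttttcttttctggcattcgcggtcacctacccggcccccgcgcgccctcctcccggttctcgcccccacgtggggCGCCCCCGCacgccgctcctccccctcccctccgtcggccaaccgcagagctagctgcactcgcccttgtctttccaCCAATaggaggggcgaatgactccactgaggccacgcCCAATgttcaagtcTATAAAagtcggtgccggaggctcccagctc
GADD45G, chr9:89604762-89605011, plus strand, 61.6% G and C: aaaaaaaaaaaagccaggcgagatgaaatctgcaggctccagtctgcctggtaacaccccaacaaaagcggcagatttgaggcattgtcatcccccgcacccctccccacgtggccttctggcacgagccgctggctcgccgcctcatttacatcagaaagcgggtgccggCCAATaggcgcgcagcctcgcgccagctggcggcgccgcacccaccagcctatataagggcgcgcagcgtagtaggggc

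Capitals mark the letters that matched 1 of 7 motifs, which were searched on both strands. The CCAAT box (CCAAT) matched at -82 to -78 and at -45 to -41 of GADD45B and at -79 to -75 of GADD45G, counting back from -1 as the base before the start site, and 32.01% of the 35116 RefSeq windows of this length held it. The TATA box was searched only as the exact letters TATAAA, which matched at -31 to -26 of GADD45B and in 10.7% of windows. These letters had 0 matches in GADD45G, whose window holds the variant TATATAAG near its end, and variants were not searched. The EGR motif (GCGNGGGCG) matched once, on the minus strand at -159 to -151 of GADD45B, and in 8.41% of windows. The heat shock element (GAANNTTC or TTCNNGAA) had 0 matches in both windows and was in 11.6% of all. The CRE core (TGACGT, 7.10% of windows), the AP-1 motif (TGANTCA, 6.57%) and the SP1 motif (GGGCGG, 42.6%) also had 0 matches in both. A match in these letters is not a measured binding site.

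Values below are log2 MAS5 signals, in which a difference of 1 is a doubling. A ratio is the difference of 2 group means, given with the standard error of a limma fit over all 9 arrays. A probe set was called when its p, adjusted by Benjamini-Hochberg over the 54613 probe sets, was under 0.05. An exact permutation test of 1 probe set, run on the 6 arrays of a comparison, has 0.1 as its smallest p. In bulk RNA a change in the number of cells that use a gene and a change in RNA per cell cannot be told apart.

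As a scale for low signals, 107 probe sets of olfactory receptors, which lymphocytes are not known to use, had a median of 5.24 in nsEP cells, 5.43 in heat-shocked cells and 4.75 in sham cells. Their 95th percentile was 7.06 in nsEP cells, 7.46 in heat-shocked cells and 7.10 in sham cells. Array medians averaged 6.37 ± 0.11 in nsEP cells, 6.69 ± 0.03 in heat-shocked cells and 6.39 ± 0.06 in sham cells (SD, n = 3 each). The median ratio of all probe sets was -0.01 for nsEP against sham, 0.18 for heat shock against sham and -0.18 for nsEP against heat shock. On the second principal component nsEP replicate 3 stood apart at -172.6, with the other 8 arrays between -30.6 and 62.6. Of 12 T lymphocyte markers, 11 were above the olfactory 95th percentile in each group, and their summed signal was 66411 to 91966 in nsEP cells, 64257 to 82715 in heat-shocked cells and 66880 to 72304 in sham cells. The chaperone genes HSPA6 and DNAJB1, used as a check of the heat shock label, had ratios of 8.77 ± 0.30 (adjusted p = 1.01e-08) and 3.14 ± 0.14 (adjusted p = 1.03e-07) for heat shock against sham in limma, and of 1.39 ± 0.30 (adjusted p = 0.208) and 0.40 ± 0.14 (adjusted p = 0.585) for nsEP against sham. HPRT1, a reference gene, was at 0.31 ± 0.15 for heat shock against sham (adjusted p = 0.292).

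All 3 genes were higher after heat shock than after sham, and none was called after nsEP. For heat shock against sham GADD45A was not called with spike-in scaling (ratio 0.49, limma adjusted p = 0.536) or with the methods' t-test. In heat shock against sham 6 of 6 GADD45 probe sets were called higher, where 1.81% of all probe sets were called higher and 4.17% in either direction. GADD45B had 4 of the 6, and probe sets of 1 gene share the arrays and are not replicates. With 1 probe set a gene, all 3 genes were called higher, where 1.72% of 19775 genes were. The median ratio of the 6 probe sets was 4.92, and GADD45A was at 1.51. The 3 heat shock arrays lay above the 3 sham arrays in 6 of 6, as they did in 16.6% of all probe sets. In nsEP against sham 0 of 6 were called by limma, where 0.0586% of all probe sets were called, and their median ratio was 0.37. The nsEP and sham arrays overlapped in all 6, where 11.6% of all probe sets had no overlap. At an unadjusted p under 0.05 limma gave 2 of the 6 for nsEP against sham, where 7.00% of all probe sets passed, and the methods' t-test gave 0 of the 6. In nsEP against heat shock 6 of 6 were called lower after nsEP, where 2.65% of all were called lower and 4.96% in either direction, with a median ratio of -4.77, though GADD45A was at 0.030 with spike-in scaling. The nsEP arrays lay below the heat shock arrays in 6 of 6, against 15.1% of all probe sets. Both stressed groups were set against the same sham arrays, and the last comparison uses the same heat shock arrays as the first.

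**Figure D1:**
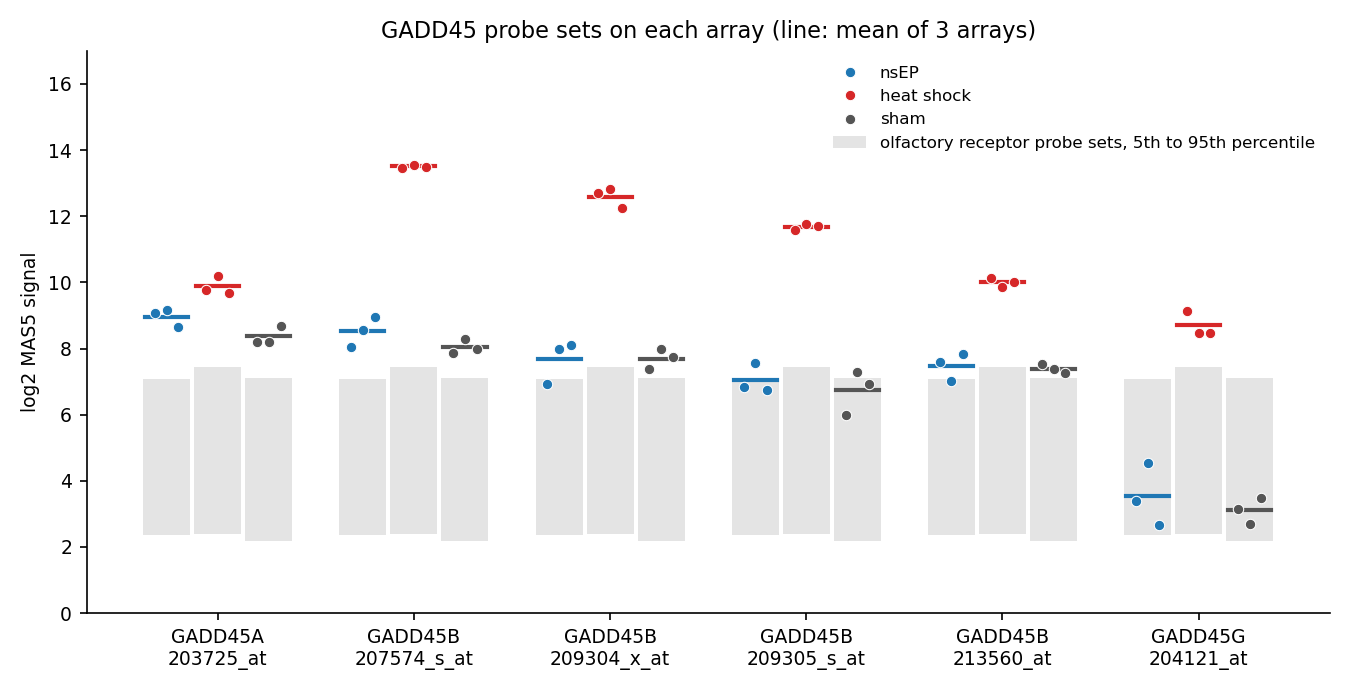
Log2 MAS5 signal (y axis) of the 6 GADD45 probe sets (x axis) on each array, with nsEP in blue, heat shock in red and sham in grey. The line is the mean of 3 arrays and the grey bar spans the 5th to 95th percentile of 107 olfactory receptor probe sets. Every heat shock point lies above every sham point of its probe set, and the nsEP points overlap the sham points in all 6.

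The plot of signal on each array shows the 3 patterns at once. For GADD45B the heat shock points stand far above the rest, for GADD45G the nsEP and sham points lie in the low part of the olfactory range, and for GADD45A the 3 groups lie closest together. Signals of different probe sets depend on their probes, so the order of 2 genes was not read from their levels, and percentiles say only where a signal lay on the array.

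GADD45A, the p53 target, was measured by probe set 203725_at. Its log2 signals were 9.06, 9.17 and 8.64 in nsEP cells, 9.76, 10.19 and 9.67 in heat-shocked cells, and 8.20, 8.20 and 8.69 in sham cells. The 3 heat shock arrays lay above all others, and nsEP replicate 3 lay below sham replicate 3, which was the only overlap of nsEP and sham. Means were 8.96 ± 0.28 in nsEP cells, 9.88 ± 0.28 in heat-shocked cells and 8.36 ± 0.28 in sham cells (SD, n = 3 each). The sham mean stood at percentile 72.4 of all probe sets and above 100% of the olfactory receptor probe sets.

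GADD45A rose 2.86-fold after heat shock, a ratio of 1.51 ± 0.22 (95% interval 1.03 to 1.99, adjusted p = 0.00195, limma). In order of size its ratio was number 3499 of all probe sets. The call was kept with quantile normalization (ratio 1.59) and median centring (1.21). When arrays were scaled to the poly-A spike-in probe sets, which moved the median ratio of all probe sets to -0.85, GADD45A was at 0.49 (adjusted p = 0.536), and with the methods' t-test its adjusted p was 0.0971. The mean log2 signal of the 24 poly-A probe sets ranged from 9.74 to 11.69 over the 9 arrays. Within groups it ranged from 9.89 to 11.16 in nsEP cells, from 11.07 to 11.69 in heat-shocked cells and from 9.74 to 10.74 in sham cells. Whether the spike-ins were added in equal amounts to equal RNA was not known, so this scaling serves only as an alternative.

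For nsEP against sham the ratio of GADD45A was 0.59 ± 0.22 (95% interval 0.11 to 1.07). Its unadjusted p was 0.0192 and its adjusted p 0.597 in limma, and the exact permutation p was 0.2, two-sided. The ratio was 0.75 (adjusted p = 0.287) without nsEP replicate 3. GADD45A was lower after nsEP than after heat shock by a ratio of -0.92 ± 0.22 (95% interval -1.40 to -0.44, adjusted p = 0.0324, limma). That call was lost when any 1 of the 6 nsEP and heat shock arrays was left out (adjusted p between 0.0552 and 0.123, ratios between -1.03 and -0.76). It was also lost when arrays were centred on their medians (ratio -0.60, adjusted p = 0.171), and the ratio turned to 0.030 with spike-in scaling (adjusted p = 0.977).

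GADD45B, the cytokine and NF-kB response gene, was measured by 4 probe sets, and all 4 gave the same order of groups for heat shock. The brightest, 207574_s_at, had log2 signals of 8.04, 8.57 and 8.97 in nsEP cells, 13.46, 13.54 and 13.50 in heat-shocked cells, and 7.87, 8.28 and 7.98 in sham cells. The heat shock arrays stood together far above the other 6, and the nsEP and sham arrays overlapped. The means were 8.53 ± 0.47 in nsEP cells, 13.50 ± 0.04 in heat-shocked cells and 8.04 ± 0.21 in sham cells (SD, n = 3 each). In percentiles of all probe sets these were 73.9 in nsEP cells, 98.6 in heat-shocked cells and 69.5 in sham cells.

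On this probe set GADD45B rose 44.0-fold after heat shock, a ratio of 5.46 ± 0.21 (95% interval 4.99 to 5.92, adjusted p = 2.58e-08, limma). By size that was number 24 of all probe sets. With spike-in scaling the ratio was 4.43 (adjusted p = 2.51e-08). The nsEP ratio was 0.48 ± 0.21 (95% interval 0.02 to 0.95), with an unadjusted p of 0.0432 and an adjusted p of 0.694 in limma and an exact permutation p of 0.2. Without nsEP replicate 3, which had the highest nsEP value, the nsEP ratio was 0.26 (adjusted p = 0.736). GADD45B was lower after nsEP than after heat shock by a ratio of -4.98 ± 0.21 (adjusted p = 1.28e-07).

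The x_at probe set 209304_x_at, whose probes can bind other transcripts as well, had log2 signals of 6.93, 7.97 and 8.10 in nsEP cells, 12.71, 12.82 and 12.23 in heat-shocked cells, and 7.37, 7.98 and 7.74 in sham cells. Probe set 209305_s_at had 6.83, 7.57 and 6.76 in nsEP cells, 11.59, 11.75 and 11.70 in heat-shocked cells, and 5.98, 7.30 and 6.94 in sham cells. Probe set 213560_at had 7.58, 7.02 and 7.83 in nsEP cells, 10.12, 9.87 and 10.01 in heat-shocked cells, and 7.53, 7.39 and 7.25 in sham cells. In all 3 the heat shock arrays lay above the other 6 and the nsEP arrays overlapped the sham arrays.

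Sham levels of these 3 probe sets were near the top of the olfactory range. The sham mean of 209305_s_at (6.74 ± 0.68) was above 90.7% of the olfactory receptor probe sets, that of 213560_at (7.39 ± 0.14) above 99.1% and that of 209304_x_at (7.70 ± 0.30) above 100% (SD, n = 3 each).

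The heat shock ratios were 4.89 ± 0.29 for 209304_x_at (29.6-fold, adjusted p = 1.25e-06, limma) and 4.94 ± 0.32 for 209305_s_at (adjusted p = 2.58e-06). With spike-in scaling they were 3.86 (adjusted p = 4.14e-06) and 3.91 (adjusted p = 3.69e-05). No fold is given for 209305_s_at, whose sham mean was below the olfactory 95th percentile of 7.10, and its ratio was 3.83 with the larger of 2 offsets added to every signal. Probe set 213560_at gave a smaller ratio of 2.61 ± 0.23 (6.11-fold, 95% interval 2.10 to 3.12, adjusted p = 5.83e-05), which does not reach the intervals of the other GADD45B probe sets. With spike-in scaling its ratio was 1.58 and the adjusted p 0.0538. The 4 probe sets therefore gave the same direction and different sizes of change for 1 gene.

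The nsEP ratios of the 3 dimmer GADD45B probe sets were -0.03 ± 0.29 for 209304_x_at, 0.31 ± 0.32 for 209305_s_at and 0.09 ± 0.23 for 213560_at (adjusted p between 0.920 and 0.996, limma). Their 95% intervals reached from -0.66 to 0.61, from -0.38 to 1.00 and from -0.42 to 0.60. Each interval includes 0 and also changes of some size in either direction. Each of the 3 ratios changed sign when 1 array was left out. It was 0.34 for 209304_x_at without nsEP replicate 1 and 0.11 without sham replicate 2, -0.065 for 209305_s_at without sham replicate 1, and -0.086 for 213560_at without nsEP replicate 3.

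Set against heat shock, the 3 nsEP ratios were -4.92 ± 0.29 for 209304_x_at, -4.63 ± 0.32 for 209305_s_at and -2.52 ± 0.23 for 213560_at (adjusted p 2.41e-06, 7.82e-06 and 9.18e-05, limma). With spike-in scaling the last was -1.57 (adjusted p = 0.0719).

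GADD45G, the third member, was measured by probe set 204121_at. Its log2 signals were 3.39, 4.54 and 2.66 in nsEP cells, 9.15, 8.48 and 8.46 in heat-shocked cells, and 3.15, 2.70 and 3.47 in sham cells. As linear MAS5 signals these were 10.5, 23.3 and 6.3 in nsEP cells, 566.1, 357.5 and 352.3 in heat-shocked cells, and 8.9, 6.5 and 11.1 in sham cells. Heat-shocked cells lay above all other arrays, and nsEP cells overlapped sham cells, with nsEP replicate 2 the highest of those 6.

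The sham mean of GADD45G was 3.11 ± 0.39 and the nsEP mean 3.53 ± 0.95 (SD, n = 3 each). The nsEP mean was above 24.3% of the olfactory receptor probe sets and the sham mean above 19.6%, so signal in both groups was within the range of genes that lymphocytes are not known to use. The heat shock mean, 8.70 ± 0.39, was above 100% of them and at percentile 75.5 of all probe sets, against 15.4 for nsEP and 11.3 for sham.

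GADD45G rose after heat shock by a ratio of 5.59 ± 0.61 (95% interval 4.27 to 6.91, adjusted p = 0.000276, limma). Its fold of 48.1 depends on how a dim signal is treated, since the sham signals carry no common floor. With 32 signal units added to every value the ratio was 3.46, and with 4 times as many units it was 1.99, and it was called both times (adjusted p 4.20e-05 and 7.42e-05). With spike-in scaling it was 4.56 (adjusted p = 0.00130).

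The nsEP ratio of GADD45G was 0.42 ± 0.61 (95% interval -0.90 to 1.74, adjusted p = 0.951, limma, exact permutation p = 0.7). Leaving out nsEP replicate 2 gave -0.085, and leaving out nsEP replicate 3 gave 0.86. Against heat shock the nsEP ratio was -5.17 ± 0.61 (95% interval -6.48 to -3.85, adjusted p = 0.000448). GADD45G passed a filter on dim probe sets (a group mean at or above the median, 6.49) only through its heat shock arrays, and the other 5 probe sets passed it in another group as well.

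**Figure D2:**
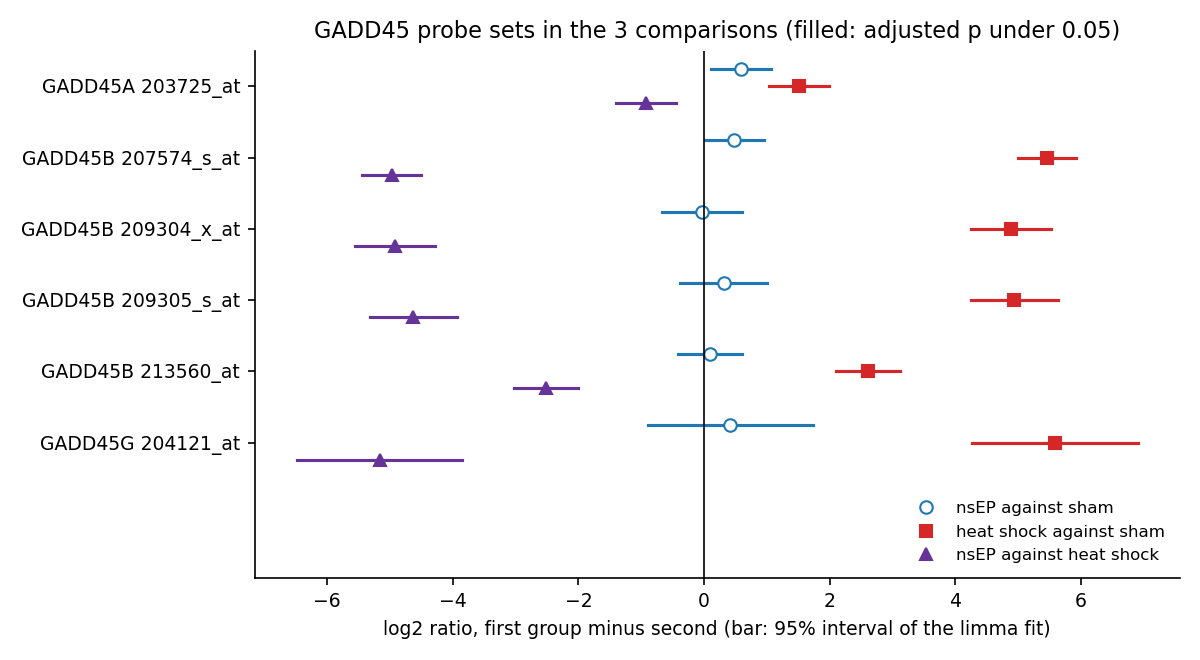
Log2 ratio (x axis) of each GADD45 probe set (y axis) for nsEP against sham (circles), heat shock against sham (squares) and nsEP against heat shock (triangles), with 95% intervals of the limma fit and filled symbols at an adjusted p under 0.05. The nsEP ratios against sham lie between -0.03 and 0.59, and the heat shock ratios lie between 1.51 and 5.59.

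The plot of ratios sets the widest interval beside GADD45G. The SD within groups was 0.63 for GADD45G, 0.28 for GADD45A and 0.26 to 0.47 for GADD45B. Over all probe sets, in quartiles of the mean over the 9 arrays, the median SD was 1.09 in the dimmest quartile and 0.24 in the brightest. It was 0.84 in quartile 2, where GADD45G lay by that mean (5.11, percentile 33.3). By its nsEP and sham means alone GADD45G lay in the dimmest quartile.

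**Figure D3:**
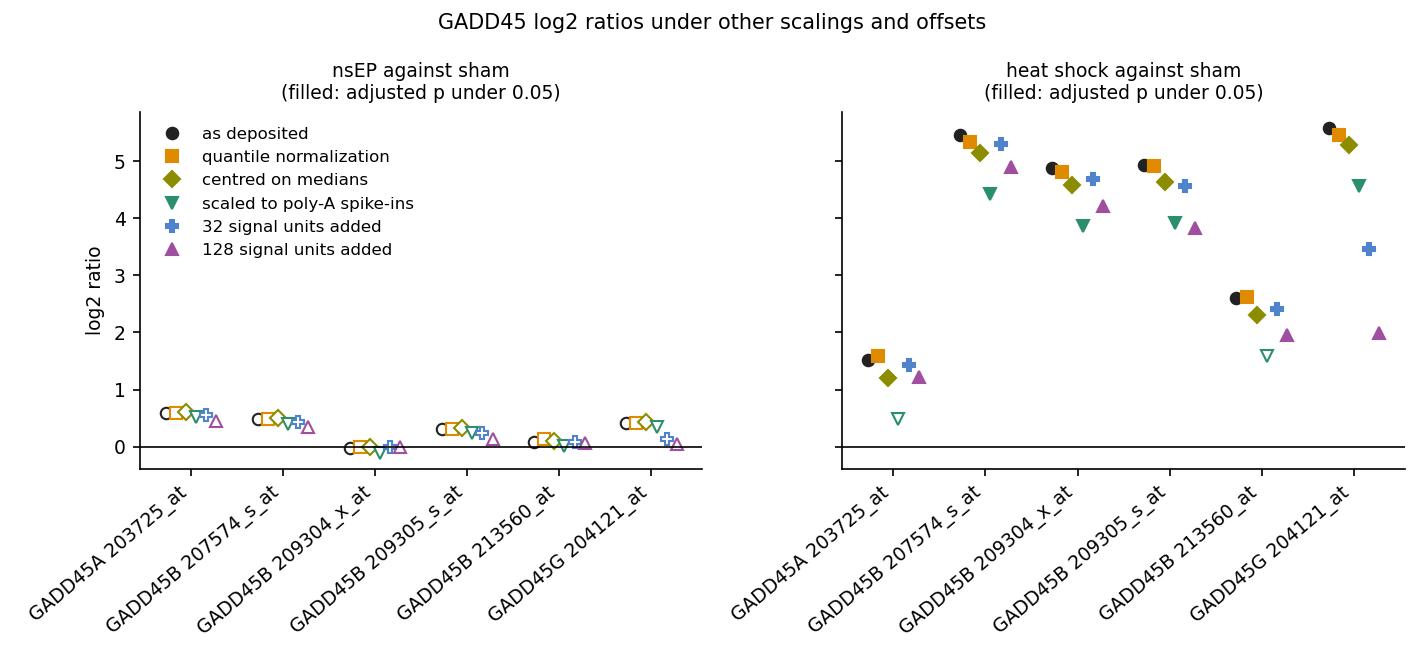
Log2 ratio (y axis) of each GADD45 probe set (x axis) for nsEP against sham on the left and heat shock against sham on the right, under the deposited MAS5 scaling, quantile normalization, centring on array medians, poly-A spike-in scaling and 32 or 4 times as many added signal units, filled where the adjusted p was under 0.05. With spike-in scaling the heat shock ratio is 0.49 for GADD45A and 1.58 for 213560_at, both open symbols, and no nsEP symbol is filled.

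The plot of scalings shows that the direction after heat shock was the same under each of these settings. GADD45A and 213560_at lost the call under 1 of them, the spike-in scaling, and GADD45G moved most with the added signal units. Of 6 probe sets, 4 were called with spike-in scaling.

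GADD45B was also set against GADD45A within each array, which cancels the scaling of the array. GADD45B (207574_s_at) minus GADD45A was between 3.35 and 3.83 in heat-shocked cells and between -0.71 and 0.08 in sham cells, a change of 3.94 (exact permutation p = 0.1, the smallest possible). The 2 groups of arrays did not overlap, and this test cannot pass 0.05 with 3 arrays against 3, so its p says nothing further. For nsEP against sham the change was -0.11 (exact permutation p = 0.8). Differences from GADD45G are not given, since its nsEP and sham signals lay within the olfactory range.

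Over the 9 arrays the 4 GADD45B probe sets had Pearson correlations of 0.9499 to 0.993 with each other. GADD45G had 0.938 to 0.976 with them, and GADD45A had 0.818 to 0.907 with the other 5. These describe 9 arrays of which 3 were heat-shocked, and they share each array's labelling and scaling.

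The genes most like each member in log2 signal over the 9 arrays were taken from 12971 genes with a group mean of at least 6.49. Of the genes named from them, 4 passed only through their heat shock arrays, as GADD45G did. These were HOXB2, NFKBIZ, HSPA1L and DLL1, and HOXB2, with means of 5.27 in nsEP cells, 6.86 in heat-shocked cells and 4.50 in sham cells, was under the olfactory 95th percentile in each group. For GADD45B they were DNAJB1 (Pearson r 0.998), HSPA6 (0.996), NFKBIZ (0.993), HSPA1L (0.992) and HSPH1 (0.990). Of these, DNAJB1 is an HSP40 cochaperone, HSPA6, HSPA1L and HSPH1 are HSP70 and HSP110 family chaperones, and NFKBIZ is a nuclear IkB protein. For GADD45G they were ADM (0.989), HSPH1 (0.983), DNAJB4 (0.982), DLL1 (0.980) and BAG3 (0.979), which encode the peptide adrenomedullin, HSPH1 again, another HSP40 cochaperone, a Notch ligand and an HSP70 cochaperone.

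For GADD45A the most similar genes were HOXB2 (0.976), PSMD8 (0.972), PHF19 (0.968), UBE2L6 (0.967) and EGR3 (0.963). EGR3, an immediate early transcription factor, had the largest nsEP ratio of the 14 named genes, 2.26 (adjusted p = 0.0828, limma), and a heat shock ratio of 4.16 (adjusted p = 9.99e-05). Above a correlation of 0.95 there were 79 genes for GADD45B, 52 for GADD45G and 8 for GADD45A.

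Genes of the pathway were read from 6 lists, with 1 probe set a gene. Of 19775 genes, 0.0607% were called for nsEP against sham, 5.71% for heat shock against sham and 5.99% for nsEP against heat shock. By direction, 0.0506% were called higher and 0.0101% lower for nsEP against sham, 1.72% higher and 3.99% lower for heat shock against sham, and 3.83% higher and 2.16% lower for nsEP against heat shock. The median ratio over all genes was -0.02, 0.14 and -0.14 in these comparisons.

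Upstream regulators, transcription factors known to act on GADD45 genes, had 15 of 17 listed genes measured. For nsEP against sham 3 rose and 0 fell, and their median ratio was 0.15. On the log2 scale EGR1, a zinc finger immediate early factor, rose by 4.94 ± 0.27 (adjusted p = 3.25e-06), JUN of AP-1 by 3.47 ± 0.16 (adjusted p = 1.02e-06) and the stress factor ATF3 by 2.30 ± 0.21 (adjusted p = 0.000592, limma). Of all probe sets of each gene, 3 of 3 were called for EGR1, 4 of 4 for JUN and 1 of 3 for ATF3, with ATF3 ratios from 1.12 to 2.30. ATF3 was not called with spike-in scaling (adjusted p = 0.208) or without the variance trend (0.0924), and with the methods' t-test none of the 3 was (adjusted p 0.406, 0.369 and 0.443). These 3 regulators were called after nsEP and the 3 GADD45 genes were not, and the difference between them was not tested.

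For heat shock against sham 3 upstream regulators rose and 2 fell, with a median ratio of -0.22. EGR1 rose by 6.43 ± 0.27, JUN by 4.83 ± 0.16 and ATF3 by 2.76 ± 0.21 (adjusted p 4.77e-08, 1.01e-08 and 1.43e-05, limma). The ratio of WT1, a zinc finger factor, was -1.42 ± 0.23 (adjusted p = 0.00423). NFYA, a subunit of the CCAAT box factor, was at -1.11 ± 0.16 (adjusted p = 0.00215), was named after its value was seen, and had 1 of 6 probe sets called, with ratios from -1.62 to 0.44. WT1 and NFYA were not called with the methods' t-test (adjusted p 0.126 and 0.102) or in limma without the variance trend (0.0627 and 0.0556). Between the stressed groups 3 were higher after nsEP than after heat shock and 2 lower. WT1 was at 1.20 ± 0.23, NFYA at 1.26 ± 0.16, EGR1 at -1.49 ± 0.27 and JUN at -1.36 ± 0.16 (adjusted p 0.0102, 0.000834, 0.00733 and 0.000523). FOXO3, also named after its value was seen, was at 0.73 ± 0.17 (adjusted p = 0.0330). Its call was lost without nsEP replicate 2, any heat shock replicate or sham replicate 3 (adjusted p between 0.0512 and 0.130). With spike-in scaling EGR1 and JUN were at -0.54 and -0.41 and not called. WT1 was not called without nsEP replicate 2 (ratio 1.02, adjusted p = 0.0533). Without the variance trend EGR1, WT1 and FOXO3 were not called in this comparison (adjusted p 0.0803, 0.0835 and 0.165), nor was FOXO3 with only the 6 arrays compared (0.0743). With the methods' t-test none of the 5 was called (adjusted p between 0.0995 and 0.264).

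The other genes named for growth arrest and DNA damage, PPP1R15A (GADD34, which brings a phosphatase to eIF2 alpha) and DDIT3 (GADD153, the transcription factor CHOP), lie outside the family. PPP1R15A rose after heat shock by 2.62 ± 0.26 (adjusted p = 0.000133, limma), and its nsEP ratio was 1.44 ± 0.26 (adjusted p = 0.0958), with the other of its 2 probe sets called. DDIT3 had ratios of 1.78 ± 0.46 for nsEP (adjusted p = 0.340) and 0.23 ± 0.46 for heat shock (adjusted p = 0.841). PPP1R15A was lower after nsEP than after heat shock, at -1.18 ± 0.26 (adjusted p = 0.0209), and the call was lost without heat shock replicate 1 (0.0991) or 3 (0.0693) and with spike-in scaling (ratio -0.23). It was also lost with median centring (0.0805), without the variance trend (0.119) and with the methods' t-test (0.291). DDIT3 was at 1.55 ± 0.46 in that comparison (adjusted p = 0.0779).

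Among 5 cell cycle and repair partners 0 were called for nsEP against sham (0 also at an unadjusted p under 0.05 and with the methods' t-test after adjustment), and 1 fell after heat shock. PCNA, the sliding clamp of DNA polymerase, was at -1.41 ± 0.19 (adjusted p = 0.00124, limma) for heat shock against sham and at 1.40 ± 0.19 (adjusted p = 0.00117) for nsEP against heat shock. The adjusted p of PCNA was 0.0902 and 0.119 in these comparisons with the methods' t-test. CDKN1A, which encodes p21, had a sham mean of 6.37, under the olfactory 95th percentile, and was at 2.23 ± 0.58 for heat shock (adjusted p = 0.0510) and 0.95 ± 0.58 for nsEP (adjusted p = 0.818). GADD45GIP1, which encodes a protein that binds GADD45G, was at 0.30 for nsEP against sham (adjusted p = 0.774).

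The kinase route through MTK1 had 9 of 12 genes measured, without MAP2K3, MAP2K7 and MAPK14. Of the 9 measured, 0 were called in each of the 3 comparisons, with median ratios of 0.04 for nsEP, 0.05 for heat shock and -0.02 for nsEP against heat shock. At an unadjusted p under 0.05 limma gave 0 for nsEP, 1 for heat shock and 3 for nsEP against heat shock, and the methods' t-test gave 0 after adjustment in each. By p the first of them were MAPK13 (-0.56, adjusted p = 0.846) and MAPK8 (0.33, adjusted p = 0.874) for nsEP and MAPK9 (0.60, adjusted p = 0.108) and MAP2K4 (-0.35, adjusted p = 0.296) for heat shock. MAP2K4 was at 0.56 (adjusted p = 0.0785) and MAPK9 at -0.60 (adjusted p = 0.0969) for nsEP against heat shock. MAPK13, a p38 kinase, was under the olfactory 95th percentile in each group. MAPK8 and MAPK9 are JNK kinases, and MAP2K4 activates JNK.

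The DNA demethylation and repair partners had 8 of 10 genes measured and 0 called against sham in either stressed group, with median ratios of -0.13 for nsEP and -0.34 for heat shock. At an unadjusted p under 0.05 limma gave 0 for nsEP and 4 for heat shock, and the methods' t-test gave 0 after adjustment in both. TET1 (-0.36, adjusted p = 0.800) and the nuclease gene ERCC5 (-0.23, adjusted p = 0.846) came first for nsEP. The oxygenase gene TET3 (-0.64, adjusted p = 0.137) and the glycosylase gene TDG (-0.53, adjusted p = 0.0806) came first for heat shock. Probe sets of the same gene differed for heat shock against sham. ING1 had 1 of 4 called, with ratios from 0.13 to 1.22, and the probe sets of TDG ran from -0.53 to 0.60. For nsEP against heat shock 1 was called, the glycosylase gene MBD4 at -0.61 ± 0.16 (adjusted p = 0.0483). The call of MBD4 was lost when any array other than nsEP replicate 3 and sham replicate 2 was left out (adjusted p between 0.0630 and 0.180), and the ratio was 0.34 with spike-in scaling. It was also lost with median centring (ratio -0.29, adjusted p = 0.355), without the variance trend (0.201), with only the 6 arrays compared (0.0779) and with the methods' t-test (0.189).

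The route from interleukin-12 and interleukin-18 to interferon gamma had 7 of 7 genes on the array and 0 called in each comparison, with median ratios of 0.14 for nsEP, 0.52 for heat shock and -0.07 for nsEP against heat shock. At an unadjusted p under 0.05 limma gave 0, 1 and 1 of them, and the methods' t-test gave 0 after adjustment in each. Above the olfactory 95th percentile were 2 of the 7 in nsEP cells, 3 in heat-shocked cells and 2 in sham cells. IFNG itself was below it in each group, with means of 5.04 ± 0.75 in nsEP cells, 5.92 ± 0.34 in heat-shocked cells and 4.78 ± 0.37 in sham cells (SD, n = 3 each), and was not called (adjusted p = 0.308 for heat shock against sham and 0.437 for nsEP against heat shock, limma). TBX21, the T-bet factor of Th1 cells, was at 0.87 (adjusted p = 0.208) for heat shock against sham and -0.90 (adjusted p = 0.181) for nsEP against heat shock, with nsEP and sham means of 6.90 and 6.93, under the olfactory 95th percentile. IL18R1 averaged 2.24 in nsEP cells and 1.40 in sham cells, below the olfactory 5th percentiles of 2.35 and 2.17 in these groups, so no ratio is given. STAT4 was at 0.14 for nsEP against sham (adjusted p = 0.966).

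**Figure D4:**
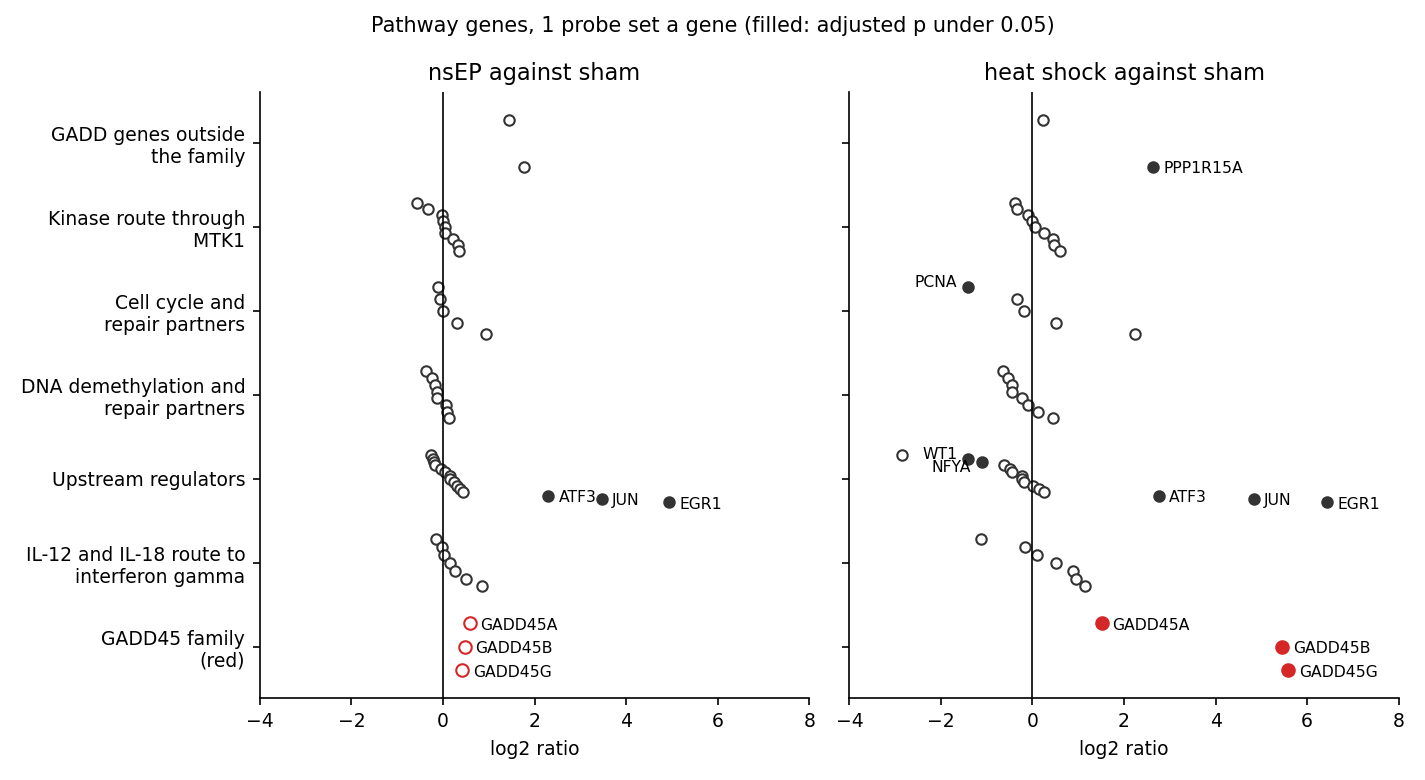
Log2 ratio (x axis) of the genes of 6 pathway lists and the GADD45 genes (red), 1 probe set a gene, for nsEP against sham on the left and heat shock against sham on the right, filled at an adjusted p under 0.05. EGR1, JUN and ATF3 are filled in both panels and the GADD45 genes only for heat shock.

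The plot of pathway genes shows most of them near 0 in both panels, with the called genes mainly in the upstream list and the family itself. Other cell types were checked by markers. Of 5 myeloid markers measured 1 was called for heat shock, CD14, whose log2 signal was 7.07 ± 0.37 in heat-shocked cells, 2.62 ± 0.57 in nsEP cells and 2.29 ± 0.89 in sham cells (SD, n = 3 each). The summed myeloid signal was 314.6 to 358.0 in nsEP cells, 566.6 to 691.9 in heat-shocked cells and 303.6 to 347.4 in sham cells, and 1 of the 5 was above the olfactory 95th percentile in each group. Of the 12 T lymphocyte markers 3 fell after heat shock, CD2, CD28 and TRAT1. Of 5 B cell and 2 erythroid markers measured 0 were called by limma in any comparison, with 0 also at an unadjusted p under 0.05 and with the methods' t-test after adjustment. Of the 5 B cell markers, 3 were above the olfactory 95th percentile in nsEP cells, 2 in heat-shocked cells and 1 in sham cells. Of the 2 erythroid markers, 1 was above it in each group. The part of these markers in the GADD45 ratios was not tested.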

How the data were processed

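Total RNA of 9 Jurkat samples was hybridised to Affymetrix HG-U133 Plus 2.0 arrays. The authors summarised 54675 probe sets by MAS5 and deposited the log2 of each signal. Turned back to signals, with 2% trimmed at each end, every array had a mean of 500.1, so arrays were already scaled to each other. MAS5 signals carry no common floor, and detection calls were not used here. The 62 control probe sets were left out. Symbols came from the platform's probe table, of which 41091 probe sets had 1 symbol, 1801 several (not used for names) and 11721 none, and loci and windows from RefSeq GRCh38.p14. A gene stood for its brightest probe set over the 9 arrays. The assays of cell viability were not analysed here.

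Group means were fitted with limma 3.58.1 in R 4.3.3, with a prior variance that followed the signal. The study's methods state a Student's t-test, which was run on the same values as an alternative, with quantile normalization, median centring, scaling to 24 poly-A spike-in probe sets, added signal units (32 or 4 times as many), a filter on dim probe sets, no variance trend, the 6 arrays of a comparison, a replicate block and each array left out. Exact permutation tests were two-sided. On simulated data with known changes the fit was tested and the mean ratios were recovered. The changes were put only into nsEP arrays and into probe sets above the median sham signal. Changes in dim probe sets, such as that of GADD45G, were not covered. The family members, pathway lists and markers were chosen with earlier results of these data known. All GADD45 probe sets are named, with up to 4 called genes of each list by size or 2 by p, the 5 most similar genes of each member, and HSPA6, DNAJB1 and HPRT1. Precision is limited by having 3 arrays in each group.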

Additional observations from a re-analysis of the deposited data

How the results depend on the processing

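The limits are 3 arrays a group, dim signals and a scaling that all values share. For nsEP against sham 0 GADD45 probe sets were called under every alternative, and for heat shock against sham 4 with spike-in scaling, 5 with the methods' t-test and 6 under the other alternatives, each array left out included. Between nsEP and heat shock 2 were called with the methods' t-test and 5 to 6 when 1 array was left out. The cause of these shifts was not tested.

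With the methods' t-test the adjusted p was 0.0971 for GADD45A in heat shock against sham (ratio 1.51). Between nsEP and heat shock it was 0.221 for GADD45A (-0.92), 0.0631 for 209304_x_at (-4.92), 0.0769 for 213560_at (-2.52) and 0.0892 for GADD45G (-5.17). With spike-in scaling GADD45A was at 0.49 for heat shock against sham and 0.030 for nsEP against heat shock, and 213560_at at 1.58 and -1.57. For GADD45A in nsEP against heat shock the ratio was -0.92 without the variance trend (adjusted p = 0.129), -0.60 with median centring, and -1.03 to -0.76 when 1 array was left out.

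For nsEP against sham, leaving out 1 array gave ratios of -0.24 to 0.34 for 209304_x_at, -0.065 to 0.59 for 209305_s_at, -0.086 to 0.32 for 213560_at and -0.085 to 0.86 for GADD45G, and the larger offset gave 0.0012 for 209304_x_at.

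The count of all probe sets called for nsEP against sham, 32, was 7 without the variance trend, 14 with 6 arrays, 12 with spike-in scaling, 19 with the larger offset, 62 without dim probe sets, 0 with the methods' t-test (0 of 6 members at an unadjusted p under 0.05) and 15 to 36 when 1 array was left out. For heat shock against sham, 2276, it was 837 without the trend, 4571 with centring, 3762 with spike-in scaling, 377 with the methods' t-test and 1130 to 3112 when 1 array was left out. Between nsEP and heat shock, 2707, it was 1100, 4792 and 124 without the trend, with centring and with the methods' t-test, and 1343 to 4018 when 1 array was left out.

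The 6 pathway lists had 2, 9, 5, 8, 15 and 7 genes measured. Of these, 7 were called for heat shock against sham, where 5.71% of all genes were. There were 13 with centring and 13 with spike-in scaling, and the count over all probe sets also rose with both. Between nsEP and heat shock 8 were called, where 5.99% of all genes were. There were 3 without the trend, 13 with centring and 5 to 12 when 1 array was left out. The count over all probe sets also fell without the trend and rose with centring.

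Samples with the same replicate number had deviations that correlated by -0.16 to 0.21. For replicate 2 the correlations were 0.17 for nsEP and sham, 0.13 for heat shock and sham and 0.21 for nsEP and heat shock. For replicates 1 and 3 they lay between -0.16 and 0.07. Whether samples of the same number shared a culture or a batch cannot be told from these values. With the replicate block 31 probe sets were called for nsEP against sham, 2268 for heat shock against sham and 2544 for nsEP against heat shock, and the call of no GADD45 probe set changed.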
